A study of Mus musculus with 4 samples.

Results

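The genes described here make cholesterol and fatty acids or control those pathways. They are 33 genes, chosen by name, whose RefSeq transcripts are the targets of 54 probes on the array, out of 18217 gene symbols and 41174 probes in all. Of the 33, 17 encode enzymes of cholesterol synthesis, 12 enzymes of fatty acid synthesis, elongation and desaturation, and 4 the SREBP transcription factors and the proteins that hold or move them. None of the 33 is a sterol uptake gene, and a separate list stands in for uptake below. The signal was measured on 4 one-colour Agilent arrays of Hepa1c1c7 cells, an established mouse hepatoma line grown in serum-supplemented medium. In the first group, 2 RNA samples came from cells given diethyl maleate (DEM) at 100 µM for 6 hours, and in the other, 2 were taken after the same time in dimethyl sulfoxide (DMSO), the solvent. DEM is an electrophile that binds glutathione and that the series title names as an activator of the transcription factor NRF2. Whether the RNA samples of a group were from separate cultures is not given in the labels, and p-values below reflect only how far these RNA samples differed, which could be technical. The extraction text speaks of liver although the other labels name the cell line.

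Cholesterol is built from acetyl-CoA through mevalonate, farnesyl pyrophosphate, squalene and a series of sterols. Fatty acids are built from the same acetyl-CoA through malonyl-CoA, and are then lengthened and desaturated in the endoplasmic reticulum. SREBP2, encoded by Srebf2, mainly drives the genes of cholesterol synthesis, and SREBP1, encoded by Srebf1, those of fatty acid synthesis. SCAP carries both factors out of the endoplasmic reticulum when sterols are scarce, and INSIG proteins hold SCAP back when sterols are plentiful. The liver is a main site of both pathways.

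The cells' identity was checked against marker genes. Of 11 hepatocyte markers 9 had a probe, and 5 of these (Alb, Afp, Apoe, Krt8 and Krt18) were well above background on all 4 arrays, while Ttr, Apoa1, Fgb and Hnf4a were not well above background on any array. Of 5 endothelial markers, 4 were not well above background on any array. Of 7 fibroblast and stellate markers 5, and of 5 cholangiocyte markers 4, were well above background on all 4 arrays, as were 2 of the 5 macrophage and leukocyte markers with a probe. The summed level of the fibroblast list, as a multiple of each array's 75th percentile, was 134 and 144 on the DMSO arrays and 114 and 131 on the DEM arrays, and that of the cholangiocyte list 198 and 210 against 160 and 184. The hepatocyte list summed to 1144 and 1096 against 1145 and 1182. Krt8 and Krt18 weigh most in that sum, at mean log2 levels of 8.67 and 8.03, against 6.86 for Afp, 3.99 for Alb and 1.55 for Apoe. The macrophage list summed to 6.41 and 5.71 against 6.70 and 5.22, and the endothelial list to 0.167 and 0.15 against 0.15 and 0.142. In the fibroblast list Col1a1, Col3a1, Pdgfrb, Des and Dcn were above background on all 4 arrays and Pdgfra on none, and in the cholangiocyte list Krt7, Krt19, Sox9 and Spp1 on all 4 and Epcam on none. In the macrophage list Cd14 and Csf1r were above background on all 4 arrays and Adgre1 on none. The part of these cell types in the results below was not tested.

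The 4 members with the largest changes described below are Hmgcs1, Dhcr7, Tm7sf2 and Acacb, and their promoters are shown. SREBPs are known to act with the factor NF-Y at promoters of many genes of sterol synthesis, and binding was not measured here. Each line gives the 250 bases before the RefSeq start site (GRCm38.p6), 5′ to 3′ on the strand of the gene. The intervals are chr13:119690101-119690350 on the plus strand for Hmgcs1, chr7:143829964-143830213 on the plus strand for Dhcr7, chr19:6067851-6068100 on the minus strand for Tm7sf2 and chr5:114165268-114165517 on the plus strand for Acacb. RefSeq lists 3 start sites for Dhcr7, and the one with the most matches is shown. Capitals mark matches, on either strand, to 4 motifs: an SRE-like sequence (TCACNCCAC), the NF-Y box (CCAAT, or ATTGG on the other strand), the E-box (CACGTG) and the core of the antioxidant response element that NRF2 binds (TGACNNNGC).
Hmgcs1: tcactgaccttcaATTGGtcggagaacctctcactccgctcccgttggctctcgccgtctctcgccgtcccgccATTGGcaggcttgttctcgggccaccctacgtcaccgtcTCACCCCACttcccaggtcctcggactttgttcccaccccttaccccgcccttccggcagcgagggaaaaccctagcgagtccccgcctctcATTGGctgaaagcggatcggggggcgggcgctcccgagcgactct
Dhcr7: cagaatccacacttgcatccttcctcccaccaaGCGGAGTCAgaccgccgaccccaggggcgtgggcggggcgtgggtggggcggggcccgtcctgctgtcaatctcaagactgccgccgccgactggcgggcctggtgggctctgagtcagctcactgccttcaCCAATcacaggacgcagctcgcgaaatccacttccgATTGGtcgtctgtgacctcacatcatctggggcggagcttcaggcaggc
Tm7sf2: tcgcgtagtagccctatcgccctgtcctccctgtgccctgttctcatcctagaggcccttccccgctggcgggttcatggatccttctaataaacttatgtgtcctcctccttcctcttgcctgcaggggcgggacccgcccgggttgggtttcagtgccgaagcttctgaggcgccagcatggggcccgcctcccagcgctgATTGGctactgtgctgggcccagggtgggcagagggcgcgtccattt
Acacb: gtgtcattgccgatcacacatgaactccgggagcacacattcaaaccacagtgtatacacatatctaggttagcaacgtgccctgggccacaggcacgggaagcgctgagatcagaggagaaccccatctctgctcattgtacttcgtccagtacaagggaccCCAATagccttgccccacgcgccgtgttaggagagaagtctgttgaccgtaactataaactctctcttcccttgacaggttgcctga
Hmgcs1 holds the SRE-like sequence and 3 NF-Y boxes in these bases. Dhcr7 holds 2 NF-Y boxes and 1 match to the antioxidant response element core on the other strand. Tm7sf2 and Acacb hold 1 NF-Y box each. A match is a description of the letters and not a site of binding.

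Over all members, RefSeq promoters of 300 bases (250 before to 50 after the start) were found for 27 of the 33 genes, 34 promoters in all. The NF-Y box was present in 67.6% of these promoters, against 37.4% of all 32851 promoters searched, and 22 of the 27 genes had it in at least 1 promoter. The SRE-like sequence was present in 2.94% of members' promoters, which is Hmgcs1 alone, against 1.24% of all. The E-box was present in 20.6% against 7.15%, and in 6 of the 27 genes. The listed promoters of Scap overlap and hold the same E-box, which is counted in each. The antioxidant response element core was present in 14.7% against 12.4%. The 5 genes with this core were Acss2, Dhcr7, Hsd17b7, Mvk and Pmvk.

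At 6 hours, most of these genes were close to their level in DMSO, and none differed past the test's threshold. Dhcr7, which reduces a double bond of the sterol nucleus, and Hmgcs1, which makes HMG-CoA, were lower on both DEM arrays. So was Acacb, the acetyl-CoA carboxylase at the mitochondrial membrane. Tm7sf2, a sterol reductase of the endoplasmic reticulum, was higher on both. None of them passed the test. A gene was called where its limma p, adjusted by Benjamini-Hochberg over all 15537 genes tested, was under 0.05. All 33 members were tested and well above background on all 4 arrays with the probe used. Of them 0 were called, against 1.22% of all genes tested (0.714% higher and 0.508% lower). At an unadjusted limma p under 0.05 there were 4 (1 higher and 3 lower, 12.1%), against 19.2% of all genes (9.02% higher and 10.2% lower). The DEM and DMSO arrays did not overlap for 7 members (2 higher and 5 lower, 21.2%), against 50.6% of all genes (24.9% higher and 25.6% lower). Among the members, median scaling called 1 (Tm7sf2). With an intensity trend and robust fitting in eBayes, 2 were called (Tm7sf2 and Dhcr7). Both settings also called more of all genes than the 1.22% above, and their totals are given in the closing section. No other setting called a member. Without DMSO replicate 1 or DMSO replicate 2, limma called 0 of all genes (2113 and 2015 at an unadjusted p under 0.05).

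The log2 change was under 0.1 in size for 21 members (63.6%), against 37.2% of all genes tested. The members' median size of change was 0.062, against 0.15 over all genes, and their signed median was −0.023, against −0.0061. The limma standard errors (SE) of the members ran from 0.084 to 0.31 with a median of 0.13, against a median of 0.11 over all genes. The 95% interval lay inside a 2-fold change either way for 30 members (90.9%), against 88.9% of all genes. The 3 whose intervals reached beyond it were Tm7sf2, Dhcr7 and Acacb. For the other 30, a change of 2-fold or more lies outside the interval. Which smaller changes also lie outside it differs by gene, since intervals ran from −0.23 to 0.29 for Fasn and from −0.71 to 0.69 for Fdps.

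**Figure D1:**
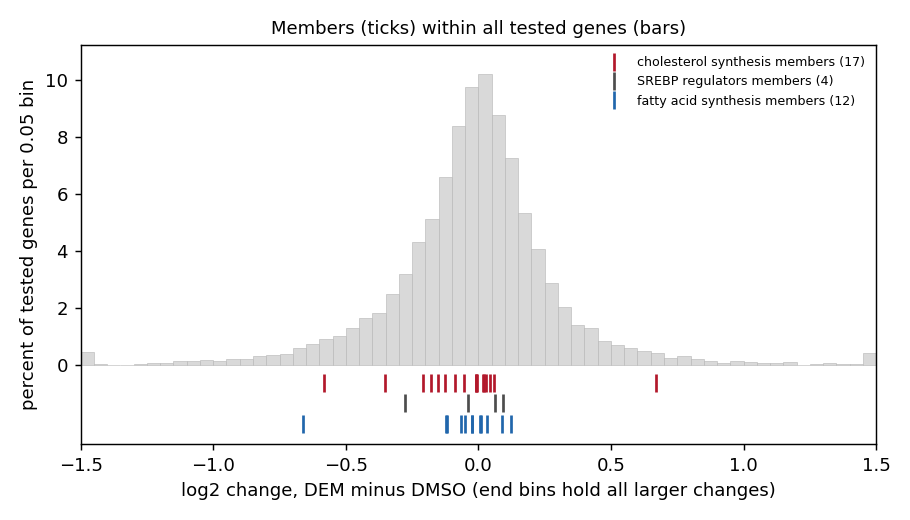
Bars show the percent of the 15537 tested genes in each 0.05-wide bin of log2 change (DEM minus DMSO), with changes beyond the axis in the end bins, and ticks below them the 33 members by class. The ticks crowd around 0, apart from Dhcr7 at −0.58, Hmgcs1 at −0.35 and Tm7sf2 at 0.67 among the cholesterol genes, Acacb at −0.66 among the fatty acid genes and Insig1 at −0.28 among the regulators.

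The first enzymes of the cholesterol pathway, from acetyl-CoA to farnesyl pyrophosphate, had 0 called of 7, and 6 of the 7 had a log2 change below 0 (51.2% of all genes did). Their median was −0.13, against −0.0061 for all genes. It was −0.20 with spike-in scaling and −0.13 after quantile normalization, and turned to 0.018 under median scaling, which moved the median of all genes to 0.14. Hmgcs1 had a scaled log2 signal, relative to each array's 75th percentile, of 3.08 and 2.79 on DMSO replicates 1 and 2 and of 2.57 and 2.61 on DEM replicates 1 and 2. Both DEM arrays were below both DMSO arrays. The log2 change was −0.35 ± 0.13 (SE, n = 2 arrays per group), with a 95% interval from −0.69 to −0.0080 and a limma adjusted p of 0.252. The second probe of Hmgcs1 was far dimmer, reading −4.47 and −4.32 in DMSO and −4.72 and −4.76 in DEM, and gave −0.34. Without DMSO replicate 1 the change of the probe used was −0.21.

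Mvd, which makes isopentenyl pyrophosphate, read 1.05 and 0.83 in DMSO and 0.83 and 0.64 in DEM. Its groups were separated only in the third decimal, and its log2 change was −0.21 ± 0.13. Without DMSO replicate 1 or 2 it was −0.099 or −0.32, and without DEM replicate 1 or 2 it was −0.30 or −0.11. Mvk, the mevalonate kinase, read 0.022 and −0.38 in DMSO and −0.080 and −0.54 in DEM, and Pmvk, the kinase of the next step, read 2.51 and 2.05 against 2.37 and 1.88. For both kinases the 2 arrays of a group lay further apart than the group means, with changes of −0.13 ± 0.22 and −0.15 ± 0.24. Fdps, which makes farnesyl pyrophosphate, read 3.80 and 3.23 in DMSO and 3.74 and 3.27 in DEM. Its change was −0.0096, and its interval ran from −0.71 to 0.69 because the arrays within each group differed. Idi1, the isomerase, had a change of −0.088 ± 0.11, and Acat2, which joins 2 acetyl-CoA molecules, one of 0.028 ± 0.087.

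Of the 10 enzymes from squalene to cholesterol, 0 were called, 5 had a change above 0 and 5 below, and the median was 0.0054. The sign of that median turned after quantile normalization (−0.019) and with spike-in scaling (−0.069), and it was 0.15 under median scaling. The 2 largest changes in this group ran in opposite directions. Dhcr7 read 2.47 and 2.27 in DMSO and 1.96 and 1.62 in DEM, so both DEM arrays were lower. The log2 change was −0.58 ± 0.16 (1.5-fold lower, 95% interval −1.0 to −0.16, limma adjusted p = 0.168), at percentile 4.72 of all genes' changes. The second probe of Dhcr7 read −1.66 and −1.83 in DMSO and −2.13 and −2.62 in DEM, a change of −0.63. Over the 16 alternatives the change ran from −0.75 to −0.40 and kept its sign. It was called under robust eBayes with a trend (limma adjusted p = 0.0463), over a range of 0.0463 to 0.454.

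Tm7sf2 read −0.78 and −0.62 in DMSO and 0.15 and −0.21 in DEM, so both DEM arrays were higher. The log2 change was 0.67 ± 0.16 (1.59-fold higher, 95% interval 0.25 to 1.1, limma adjusted p = 0.142), at percentile 97.4 of all genes' changes. The array carries 1 probe for Tm7sf2, so no second probe could be set beside it. Over the alternatives the change ran from 0.49 to 0.85 and kept its sign. Its limma adjusted p ran from 0.0334 under median scaling to 0.408 without a filter on dim probes. It was also called under robust eBayes with a trend (limma adjusted p = 0.0351). Median scaling moved the median change of all genes to 0.14.

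The other 8 sterol enzymes had changes from −0.18 to 0.058. Fdft1, which makes squalene, read 2.0 and 1.86 in DMSO and 1.88 and 1.63 in DEM, a change of −0.18 ± 0.13 that was −0.11 without DMSO replicate 1, −0.30 without DEM replicate 1 and −0.054 without DEM replicate 2. Sqle, the squalene epoxidase, read 3.93 and 3.89 against 4.03 and 3.88, a change of 0.043 ± 0.097. Lss, which closes the sterol rings, had a change of 0.058 ± 0.14, and Cyp51, which removes a methyl group from lanosterol, one of −0.0066 ± 0.19. Nsdhl and Hsd17b7, which act in removing the next methyl groups, had changes of 0.017 ± 0.20 and −0.053 ± 0.19. The sterol isomerase gene Ebp had −0.0099 ± 0.12 and the desaturase gene Sc5d 0.021 ± 0.093. For each of these 8 the DEM and DMSO arrays overlapped.

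**Figure D2:**
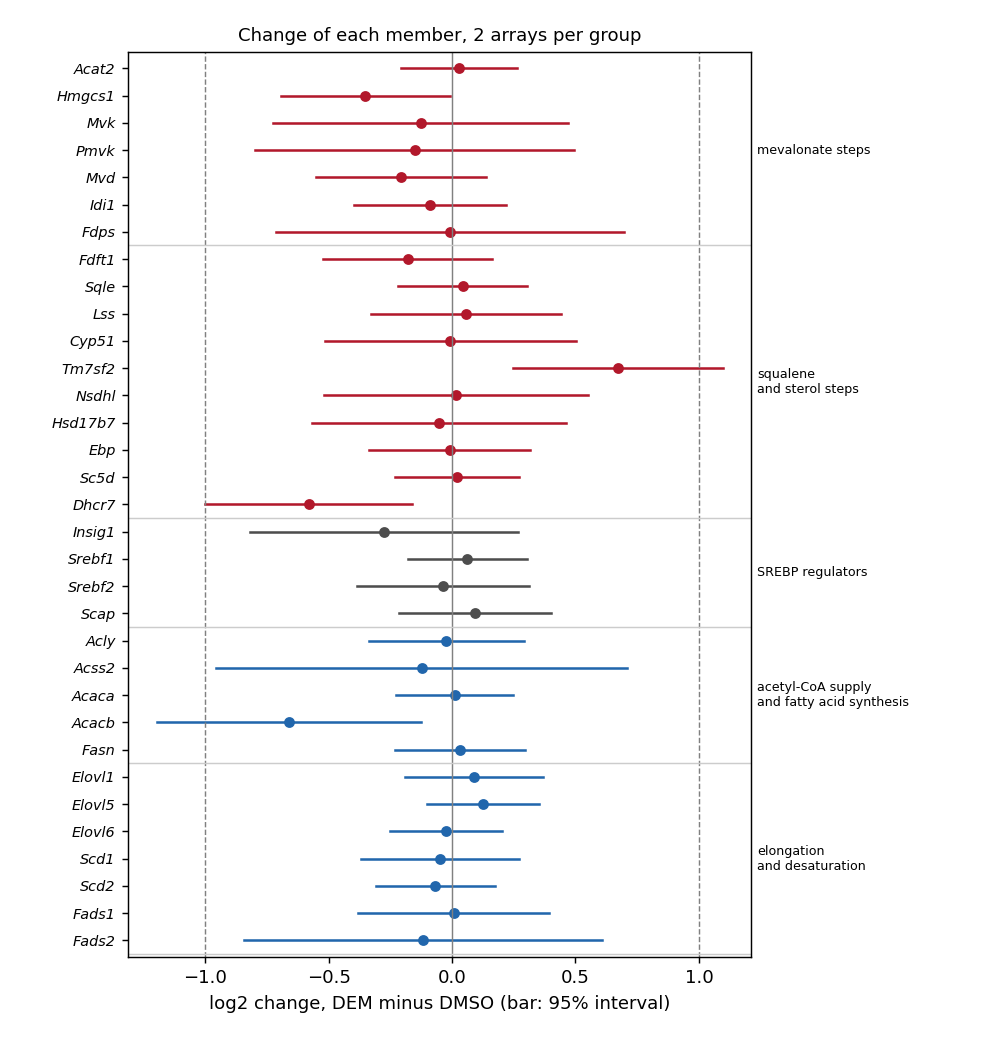
Points show the log2 change (DEM minus DMSO, 2 arrays per group) of each member and bars its 95% interval, with dashed lines at a 2-fold change either way and colours by class. The intervals of Hmgcs1, Dhcr7, Tm7sf2 and Acacb do not reach 0, and those of the other 29 members cross it.

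Of the 4 SREBP regulators 0 were called, 2 had a change above 0 and 2 below. Their median was 0.012 and its sign turned after quantile normalization (−0.0038) and with spike-in scaling (−0.063). Srebf1 read 4.53 and 4.42 in DMSO and 4.55 and 4.53 in DEM, a change of 0.062 ± 0.090, and leaving out DMSO replicate 2 gave 0.0076 and leaving out DMSO replicate 1 gave 0.12. Srebf2 read 1.15 and 1.09 against 1.23 and 0.94, a change of −0.038 ± 0.13, and Scap 4.17 and 3.94 against 4.17 and 4.12, a change of 0.093 ± 0.11. The DEM arrays overlapped the DMSO arrays for all 3 genes. Insig1, itself a target of SREBP, read −3.09 and −2.55 in DMSO and −3.13 and −3.06 in DEM, a change of −0.28 ± 0.20 that rests on DMSO replicate 2 and was −0.0048 for its other probe. That other probe read −2.94 and −3.28 in DMSO and −2.44 and −3.79 in DEM. Without DMSO replicate 2 the change of the probe used was −0.0049. The isoforms of Srebf1 were not separated.

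Among the 5 genes of acetyl-CoA supply and fatty acid synthesis, 0 were called and Acacb alone was separated between groups. Acacb read −2.06 and −2.38 in DMSO and −2.67 and −3.09 in DEM. The log2 change was −0.66 ± 0.20 (1.58-fold lower, 95% interval −1.20 to −0.12, limma adjusted p = 0.197), at percentile 3.54 of all genes' changes. It ran from −0.87 to −0.45 over 15 alternatives, kept its sign and was not called in any of them (lowest limma adjusted p 0.0621, with the replicate number as a block). The second probe of Acacb was not well above background on any array. Acaca, the cytosolic carboxylase that supplies malonyl-CoA for synthesis, read 0.34 and 0.27 in DMSO and 0.28 and 0.35 in DEM. Its change was 0.010 ± 0.088. Its other tested probes gave −0.33 and 0.065 but were far dimmer. The first read −4.66 and −4.58 in DMSO and −5.02 and −4.87 in DEM. The second read −4.97 and −4.91 against −4.90 and −4.85.

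Fasn, the fatty acid synthase, read 7.10 and 7.02 in DMSO and 7.03 and 7.16 in DEM, and its second probe gave the same change to 2 decimals (0.03). The interval of its change, −0.23 to 0.29, is among the narrower ones. Acly, which makes cytosolic acetyl-CoA from citrate, read 1.62 and 1.68 against 1.75 and 1.51, a change of −0.023 ± 0.12. Acss2, which makes acetyl-CoA from acetate, read −1.76 and −2.56 in DMSO and −2.10 and −2.47 in DEM. Its DMSO arrays differed by 0.80, the widest gap within a group among the members, and its change was −0.12 ± 0.31.

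The 7 elongases and desaturases had 0 called and changes from −0.12 to 0.12, with a median of −0.024 that turned to 0.12 under median scaling. Elovl5, which lengthens polyunsaturated fatty acids, read 2.49 and 2.44 in DMSO and 2.57 and 2.60 in DEM, so both DEM arrays were higher, by 0.12 ± 0.085. Its second probe gave −0.048. Scd2, a desaturase that makes monounsaturated fatty acids, read 6.35 and 6.38 against 6.35 and 6.25, so both DEM arrays were lower, by a margin in the third decimal, with a change of −0.067 ± 0.090 (−0.12 without DEM replicate 1 and −0.015 without DEM replicate 2). Scd1, its close paralog, read 2.99 and 2.80 against 2.93 and 2.76, a change of −0.050 ± 0.12, and signal shared between probes of the 2 paralogs was not tested. Elovl6, which lengthens palmitate, had a change of −0.024 ± 0.084, the smallest SE among the members, and Elovl1, which makes very long chains, one of 0.089 ± 0.10. Fads1 and Fads2, the desaturases of polyunsaturated fatty acids, had 0.0071 ± 0.14 and −0.12 ± 0.27.

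**Figure D3:**
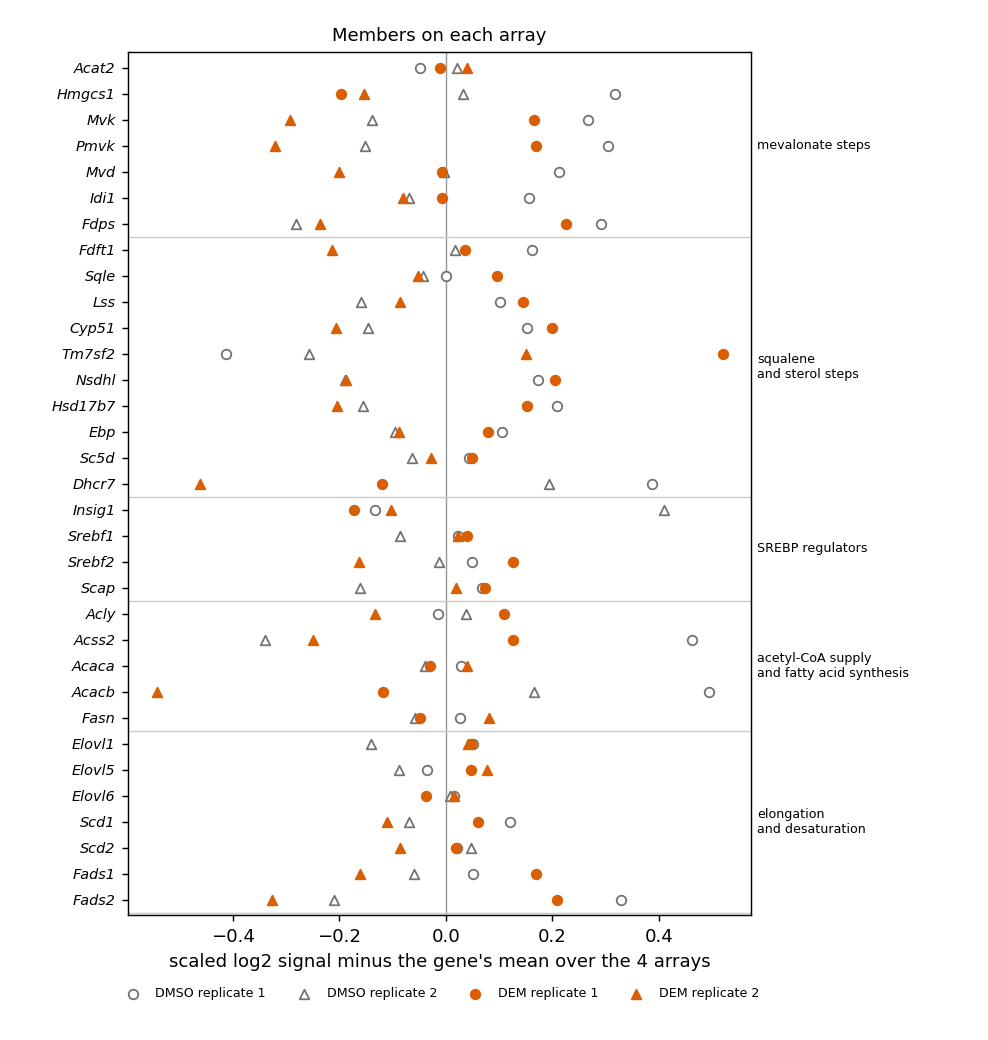
Each symbol is 1 array: the horizontal axis gives the scaled log2 signal of a member minus its mean over the 4 arrays, and rows are ordered by role. Filled DEM symbols lie left of both open DMSO symbols for Hmgcs1, Dhcr7 and Acacb and right of them for Tm7sf2, while for many rows circles (replicate 1) lie right of triangles (replicate 2) in both groups.

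Set side by side, the 3 classes had medians close to that of all genes (−0.0061). The median log2 change was −0.0099 for the 17 cholesterol synthesis genes, −0.023 for the 12 fatty acid genes and 0.012 for the 4 regulators, and 0 genes were called in each class. Under median scaling the 3 medians were 0.14, 0.12 and 0.16 beside 0.14 for all genes, and under spike-in scaling −0.084, −0.098 and −0.063 beside −0.081. In most cases, leaving out a single array moved these medians more than the classes differed. The exceptions were the fatty acid and regulator medians without DMSO replicate 2. Without DEM replicate 1 the 3 medians were −0.21, −0.13 and −0.065, and without DEM replicate 2 they were 0.093, 0.050 and 0.089. Without DMSO replicate 1 they were 0.076, 0.053 and 0.055, and without DMSO replicate 2 −0.20, −0.038 and −0.013.

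The arrays within a group differed for these genes in a way that recurred in both groups. In 23 of the 33 members (69.7%) the replicate 1 array read above the replicate 2 array in DMSO and also in DEM, against 36.9% of all genes tested. This held for 14 of the 17 cholesterol synthesis genes, 9 of them among the 10 from squalene to cholesterol, for 6 of the 12 fatty acid genes and for 3 of the 4 regulators. The median difference of replicate 1 minus replicate 2 over the cholesterol synthesis genes was 0.22 in DMSO and 0.25 in DEM. Over the fatty acid genes it was 0.097 and 0.14, and over all genes 0.042 and −0.0064. For the cholesterol genes the median size of the change between group means was 0.058. That is an unlike measure, since the gap is a signed difference between single arrays. A gap of the same sign in both groups cancels in part between the group means. Fdps (0.57 and 0.46), Pmvk (0.46 and 0.49), Fads2 (0.54 and 0.53) and Acss2 (0.80 and 0.37) had the widest such gaps. In 2 members replicate 1 read below replicate 2 in both groups, Insig1 (−0.54 and −0.068) and Acat2 (−0.070 and −0.052). Replicate numbers name samples and the labels tie no sample of one group to a sample of the other.

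**Figure D4:**
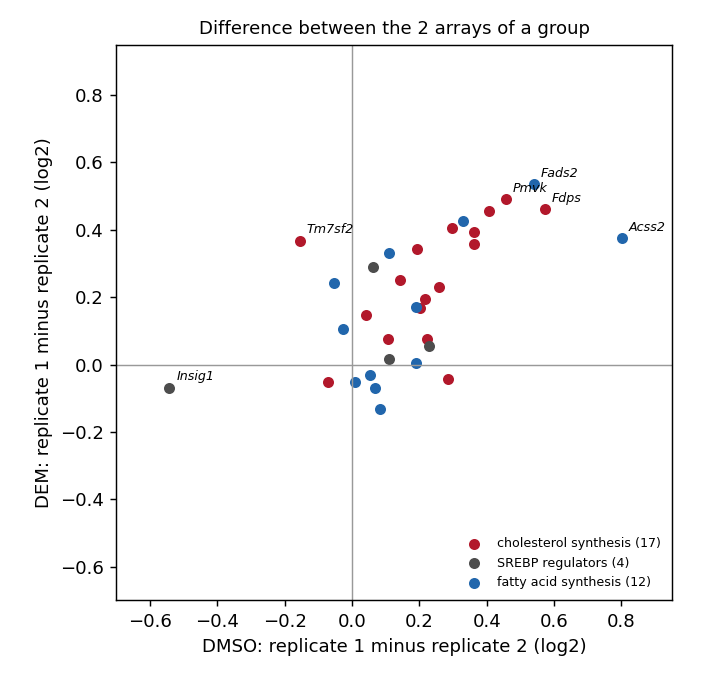
Each point is a member: the horizontal axis gives the log2 difference between DMSO replicates 1 and 2, the vertical axis the same for DEM, and colours mark the class. 23 of the 33 points lie in the upper right quadrant, with Acss2 farthest right at 0.80 and Insig1 farthest left at −0.54.

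Several probes of a member could be compared for 15 genes. Of the 54 probes 51 were tested and 3 (of Fdft1, Acaca and Acacb) were not well above background on any array. Beside the 33 probes used there were 18 others, of which 13 had a change of the same sign and 13 lay within 0.1 of the probe used, with a median distance of 0.048. The 2 that lay more than 0.25 away were those of Insig1 and Acaca given above. The 2 probes of Lss gave 0.058 and 0.053, and the 3 of Cyp51 gave −0.0066, −0.022 and −0.048. Probes of a gene share its RNA on the same arrays and are not replicates.

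**Figure D5:**
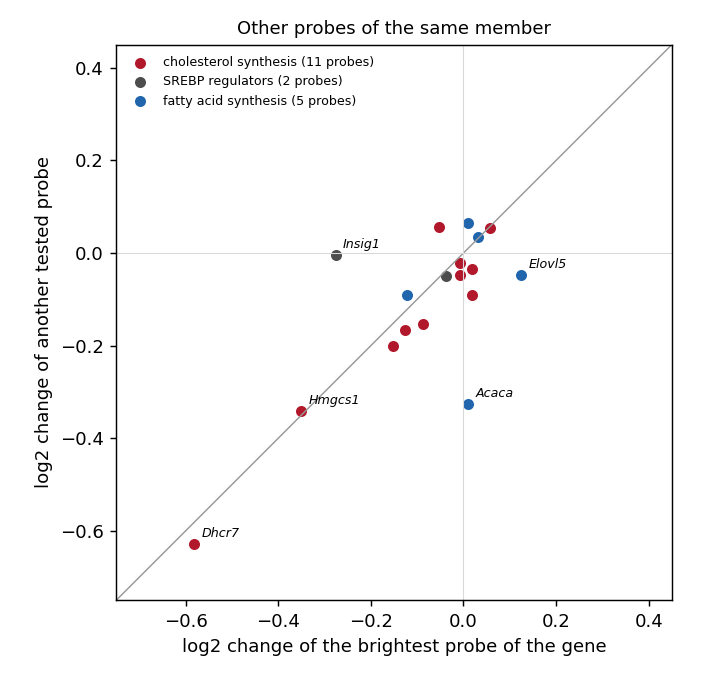
The horizontal axis gives the log2 change of the brightest probe of a member, which was the one used, and the vertical axis that of each of the 18 other tested probes, with a line where both are equal. Dhcr7 (−0.58 and −0.63) and Hmgcs1 (−0.35 and −0.34) lie near the line, while Acaca (0.010 and −0.33) and Insig1 (−0.28 and −0.0048) lie off it. The other probes of Hmgcs1 and Acaca were far dimmer than those used.

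Other genes around the pathway were counted from 4 lists. Of 33 genes listed 27 were tested, 0 were called, and 3 were higher and 0 lower at an unadjusted limma p under 0.05 (11.1%, against 19.2% of all genes). Genes of sterol uptake, esterification and export had a log2 change above 0 for 7 of 7 tested under the 75th percentile scaling (48.8% of all genes). All 7 were above 0, and above the median of all genes, under each of the 4 array scalings. The share of all genes above 0 is not given for the other scalings. Under median scaling 7 of 7 elongases and desaturases and 6 of 6 other regulators were above 0 too. The uptake list had a median of 0.13 that ran from 0.055 under spike-in scaling to 0.27 under median scaling. The largest was Lrp8, an apolipoprotein E receptor of the LDL receptor family, which read 0.056 and 0.11 in DMSO and 0.77 and 0.62 in DEM. Both DEM arrays were above both DMSO arrays, with a change of 0.62 ± 0.098 (limma adjusted p = 0.0782). Lrp8 was called under median scaling, which moved the median of all genes to 0.14. Its other 2 probes gave 0.66 and 1.08, and the last was called when every probe was tested on its own (limma adjusted p = 0.0391). Scarb1, a receptor for high-density lipoprotein chosen after its values were seen because it was the other uptake gene with an unadjusted p under 0.05, read 2.46 and 2.40 in DMSO and 2.83 and 2.76 in DEM, a change of 0.37 ± 0.088 (limma adjusted p = 0.145). By comparison, 5 of 10 enzymes from squalene to cholesterol and 1 of 7 of the mevalonate steps were above 0 under the 75th percentile scaling. These counts were 8 and 4 under median scaling, 3 and 1 after quantile normalization, and 1 and 0 under spike-in scaling. Above the median of all genes were 5 of the 10 (4 after quantile normalization) and 1 of the 7 under each scaling. Whether the uptake and synthesis lists differ was not tested.

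Of 9 tested genes of fatty acid activation and triglyceride synthesis, 0 were called, 3 had a change above 0 and the median was −0.083 (0.062 under median scaling). The largest was Me1, the malic enzyme that supplies NADPH, which read 2.66 and 2.68 in DMSO and 3.05 and 3.21 in DEM. Both DEM arrays were higher, with a change of 0.47 ± 0.098 (limma adjusted p = 0.117). Of 6 other regulators tested 0 were called, with a median of 0.025 that turned to −0.050 under spike-in scaling. The largest was Nr1h2, a nuclear receptor for oxysterols, at 0.15 ± 0.090. Of 5 tested enzymes that branch from mevalonate 0 were called, with a median of −0.086 (0.059 under median scaling). The largest was Dhdds, which makes dolichol precursors, at 0.25 ± 0.10, while its second probe gave −0.22.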

How the data were processed

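The scanner files, per the file headers, came from Agilent Feature Extraction 10.7.3.1 with probe annotation on mm9. All 4 arrays lay on 1 slide with 1 scan time, so neither could be tested as a batch. The deposited values are spot intensities on a linear scale, which per the file headers were background-subtracted by that software, and the authors' deposited value table equals them on all 45018 spots. 0 spots were saturated, and 50.4% to 52.6% of 41174 probes per array were well above background. The number of arrays limits the precision.

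From these, log2 intensity minus the array's 75th percentile over non-control spots was computed, outlier spots were dropped, and probes were named by accession through RefSeq (GRCm38.p6; 26690 probes matched). A probe well above background on at least 2 arrays was tested, the one with the highest mean per gene, giving 15537 genes. DEM was compared with DMSO with lmFit and eBayes of limma 3.58.1, run in R 4.3.3, and p-values were adjusted over all genes (Benjamini-Hochberg). The fit was tested on simulated data. All members are named, and of each other list the member with the largest change and any called, plus Scarb1, chosen after its values were seen. The members and lists were chosen with earlier results of these data known. Alternatives covered background correction, scaling, filtering, choice of probes, variance model, a block for the replicate number and the omission of single arrays. Spike-in scaling used E1A control probes. Normexp used the median spot signal.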

Additional observations from a re-analysis of the deposited data

How the results depend on the processing

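Depth does not apply to arrays; 2 arrays per group limit every value. The signs of Hmgcs1, Mvd, Fdft1, Dhcr7, Tm7sf2, Insig1 and Acacb were the same in every alternative that gave them a value, and those of the other 26 members turned at least once. Of all genes, limma called 190 (58.4% higher). It called 807 after normexp, 93 after quantile normalization, 426 with a filter on all 4 arrays, 726 with an eBayes trend and 882 with trend and robust fitting. Median scaling called 567 (404 higher, 163 lower) and spike-in scaling 572 (198 higher, 374 lower). Without a filter on dim probes it called 0 (3165 at an unadjusted p under 0.05), and leaving out 1 array gave 0 to 121, where the lone array is assumed to vary like the other group. The causes were not tested. Members called numbered 1 under median scaling, 2 with trend and robust fitting and 0 under each other setting and with each array left out.

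The fatty acid median was 0.12 under median scaling, and the regulator median was −0.055 after normexp, 0.16 under median scaling and −0.063 under spike-in scaling. Leaving out 1 array moved the cholesterol median from −0.21 to 0.093, the fatty acid median from −0.13 to 0.053 and the regulator median from −0.065 to 0.089.

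With the replicate number as a block, limma called 143 of all genes and 0 members (lowest adjusted p = 0.0621), and no member changed its call. Over all genes, the differences between replicates 1 and 2 of the groups correlated at r = 0.14 across genes, which are not independent replicates. With 2 numbers and no label that ties them, the samples were not treated as pairs.

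Changes of uncalled members that turned sign were as follows. After normexp they were Acat2 −0.0043, Sqle −0.045, Nsdhl −0.19, Ebp 0.16, Srebf1 −0.024, Scd1 0.12 and Fads1 −0.076. Under spike-in scaling they were Acat2 −0.046, Sqle −0.032, Lss −0.017, Nsdhl −0.057, Sc5d −0.053, Srebf1 −0.013, Acaca −0.064, Fasn −0.043 and Fads1 −0.067. Under median scaling they were Mvk 0.018, Idi1 0.058, Fdps 0.14, Cyp51 0.14, Hsd17b7 0.092, Ebp 0.14, Srebf2 0.11, Acly 0.12, Acss2 0.022, Elovl6 0.12, Scd1 0.095, Scd2 0.078 and Fads2 0.026. Under quantile normalization they were Sqle −0.0076, Sc5d −0.026, Acaca −0.0061 and Fads1 −0.025. With the mean of a gene's probes they were Nsdhl −0.036, Hsd17b7 0.0013 and Acaca −0.084, and with another probe Nsdhl −0.091, Hsd17b7 0.055, Acaca −0.33 and Elovl5 −0.048.

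Leaving out 1 array gave ranges that include both signs for Acat2 (−0.0067 to 0.064), Mvk (−0.36 to 0.10), Pmvk (−0.40 to 0.093), Idi1 (−0.20 to 0.025), Fdps (−0.30 to 0.28), Sqle (−0.031 to 0.12), Lss (−0.072 to 0.19), Cyp51 (−0.21 to 0.20), Nsdhl (−0.18 to 0.21), Hsd17b7 (−0.23 to 0.13), Ebp (−0.11 to 0.091) and Sc5d (−0.032 to 0.075). The same held for Srebf2 (−0.18 to 0.11), Scap (−0.021 to 0.21), Acly (−0.14 to 0.098), Acss2 (−0.52 to 0.28), Acaca (−0.025 to 0.045), Fasn (−0.033 to 0.098), Elovl1 (−0.0060 to 0.18), Elovl6 (−0.050 to 0.0025), Scd1 (−0.14 to 0.044), Fads1 (−0.16 to 0.17) and Fads2 (−0.39 to 0.15).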
